A study of Homo sapiens with 6 samples.

Results

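Interleukin-1 (IL-1) ligands and receptors were compared between pLUM and pLB, a luminal and a luminobasal line derived from T47Dco human breast cancer cells. The set comprised 9 genes: the ligands IL1A, IL1B, IL18 and IL33, the antagonist IL1RN, the receptors IL1R1 and IL1RL1, the coreceptor IL1RAP and the decoy receptor IL1R2. The genes were chosen with earlier results of these data known. Their probes were taken by gene symbol alone, as all noncontrol spots that carry one of these symbols. This gave 13 probes on 40 spots, out of 34127 probes and 25940 genes on the array. Of the 13 probes, 8 were bright enough to be tested, and they represent 6 of the 9 genes. IL1A and IL1B reached that limit only through pLB, so that a tested difference in these genes is partly set by the filter.

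T47Dco is an estrogen receptor-positive (ER+), progesterone receptor-positive (PR+) line. pLUM cells (ER+PR+CK5-, sorted as CLD3+CD49f-) came from a xenograft tumor grown with estradiol (E) and received E at 1 nM during the last 72 h. pLB cells (ER-PR-CK5+, sorted as CLD3-CD49f+) came from a tumor grown with E plus progesterone and were kept without E (E withdrawn, EWD). Each line had been made once and was sorted in triplicate, so that the 3 arrays per line measure the spread between sorts and not between independently derived lines. The sources used here do not say which CK5 fraction was hybridized. Line and E treatment coincided on all 6 arrays and cannot be told apart.

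Each array carried 1 sample labelled with 1 dye. Signals are given as log2 of the background-corrected intensity relative to the 75th percentile of the array, which was 449 to 869 intensity units, so that a value of 0 is the brightness of an upper-quartile spot. Slide 1 held all 3 pLUM arrays and 1 pLB array (replicate 1), and slide 2 held pLB replicates 2 and 3. Pearson's r across probes was 0.972 to 0.991 within a line. Of the marker lists, 7 of 8 luminal genes were lower and 9 of 10 luminobasal genes, which the study partly chose on such cells, were higher in pLB. KRT5, the gene of CK5, did not rise well above background in pLUM and was at least 1754-fold higher in pLB. The summed relative signal of 10 markers of leukocytes, cells known to make IL-1, was 0.532 to 0.681 in pLUM and 0.414 to 0.611 in pLB, and limma called none of the 5 that were tested, although 3 had an unadjusted p under 0.05. The summed signal of 6 fibroblast markers was 0.767 to 0.966 in pLUM and 0.786 to 1.14 in pLB. COL1A2 was at least 11.5-fold higher in pLB, COL1A1 differed by -0.56 on the log2 scale and was not called, and COL3A1, DCN, LUM and PDGFRB were at background in both lines. Over 4 endothelial markers the sum was 0.0728 to 0.108 in pLUM and 0.0937 to 0.207 in pLB. VWF was at least 1.80-fold higher in pLB by 1 probe and at background by another, CDH5 was not called, and PECAM1 and KDR were at background in both lines. The part of such cells in the results was not tested. The number of arrays limits how precisely differences are known, and an exact two-sided permutation test of 3 against 3 cannot give a p below 0.1.

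IL-1 alpha and IL-1 beta are cytokines that act through the same receptor, IL1R1, which signals only after the coreceptor IL1RAP has joined it. The antagonist encoded by IL1RN occupies IL1R1 without recruiting IL1RAP, and IL1R2 binds ligand but has no signalling domain. IL1RAP also serves the receptors for IL-33 and IL-36. IL-1 beta and IL-18 are made as inactive precursors that caspase-1 cleaves, and signalling passes through MYD88 and IRAK kinases to NF-kappaB, which induces chemokines and other inflammatory genes. In epithelia, IL-1 alpha is stored in cells and released on damage.

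The first 30 of the 60 bases of the probes for the 3 genes called different between lines are shown, since the results turn on what these probes detect. The pair of IL1RAP probes reads alternative ends of the gene, where the transcript NM_002182 encodes the membrane coreceptor and NM_134470 the shorter, soluble form. Positions are those of the array files, in hg19.
IL1A, chr2:113532362-113532421, minus strand: ttattattcttcataacaattttaggagga
IL1B, chr2:113587429-113587488, minus strand: ggaatcaattcaatttggactggtgtgctc
IL1RAP membrane form, chr3:190368968-190369027, plus strand: aattaatggttttaaatatatgctataggg
IL1RAP soluble form, chr3:190347694-190347753, plus strand: aaagattgcatcatctgacctaagactttc

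The 250 bases before the annotated start of the same 3 genes are shown because the genes were called in the same direction. Sequences are from RefSeq in GRCh38.p14, and IL1A is given by the first of its 2 listed starts. Capitals mark matches on either strand to the letters of the TATA box (TATAAA), the CCAAT box (CCAAT), AP-1 (TGANTCA), C/EBP (TTGCNNAA), NF-kappaB (GGGNNNTTCC) or the GC box (GGGCGG), where N is any base. None of these motifs overlapped in the 3 windows.
IL1A promoter, chr2:112784494-112784743, minus strand: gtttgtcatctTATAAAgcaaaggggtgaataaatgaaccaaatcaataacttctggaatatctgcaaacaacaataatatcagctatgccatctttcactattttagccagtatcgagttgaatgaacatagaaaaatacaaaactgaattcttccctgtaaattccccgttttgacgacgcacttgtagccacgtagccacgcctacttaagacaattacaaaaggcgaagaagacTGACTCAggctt
IL1B promoter, chr2:112836780-112837029, minus strand: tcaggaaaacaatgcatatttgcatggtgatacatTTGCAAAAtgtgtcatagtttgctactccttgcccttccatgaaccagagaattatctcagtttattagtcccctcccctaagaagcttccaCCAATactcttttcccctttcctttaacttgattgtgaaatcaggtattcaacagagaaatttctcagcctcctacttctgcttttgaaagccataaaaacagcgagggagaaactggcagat
IL1RAP promoter, chr3:190513835-190514084, plus strand: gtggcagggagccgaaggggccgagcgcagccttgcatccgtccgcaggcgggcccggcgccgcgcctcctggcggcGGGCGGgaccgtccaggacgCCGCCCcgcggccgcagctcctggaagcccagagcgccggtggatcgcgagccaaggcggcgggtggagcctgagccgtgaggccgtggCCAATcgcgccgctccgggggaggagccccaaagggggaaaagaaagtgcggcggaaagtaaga

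No motif of the 6 occurred in all 3 windows as shown, although the window of the second IL1A start holds a CCAAT match, as do those of IL1B and IL1RAP. IL1A held an AP-1 match that began 12 bases before its start, and such a match was present in 6.57% of the 35116 promoter windows of the RefSeq table. IL1B held a C/EBP match, as did 9.05% of all windows, and IL1B and IL1RAP each held a CCAAT match, as did 32.0%. IL1RAP had 2 matches to the GC box, which 42.6% of windows contain. The NF-kappaB letters, present in 5.67% of windows, were found in none of the 3, which says only that these letters are not there. The windows also differed in composition, with a GC content of 37.6% for IL1A and 40% for IL1B but 74.8% for IL1RAP, compared with a median of 58.0% over all windows.

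IL1RAP, IL1A and IL1B were higher in pLB, no member was called lower, and IL18, IL1RN and IL1R1 did not pass the test (limma, at least 2-fold and a Benjamini-Hochberg adjusted p under 0.05 over all 23105 tested probes). Across the array, 45.7% of tested genes were called, 22.7% as higher and 23.0% as lower in pLB, and by probe 45.6%, 21.9% and 23.7%. By probe, 5054 were higher and 5476 lower, but with scaling to spike-in controls 6131 were higher and 4363 lower. At an unadjusted p under 0.05, 4 members were higher and 0 lower, beside 6064 higher and 5802 lower of all 17670 tested genes. The methods' t-test also called 3 members higher and 0 lower.

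**Figure D1:**
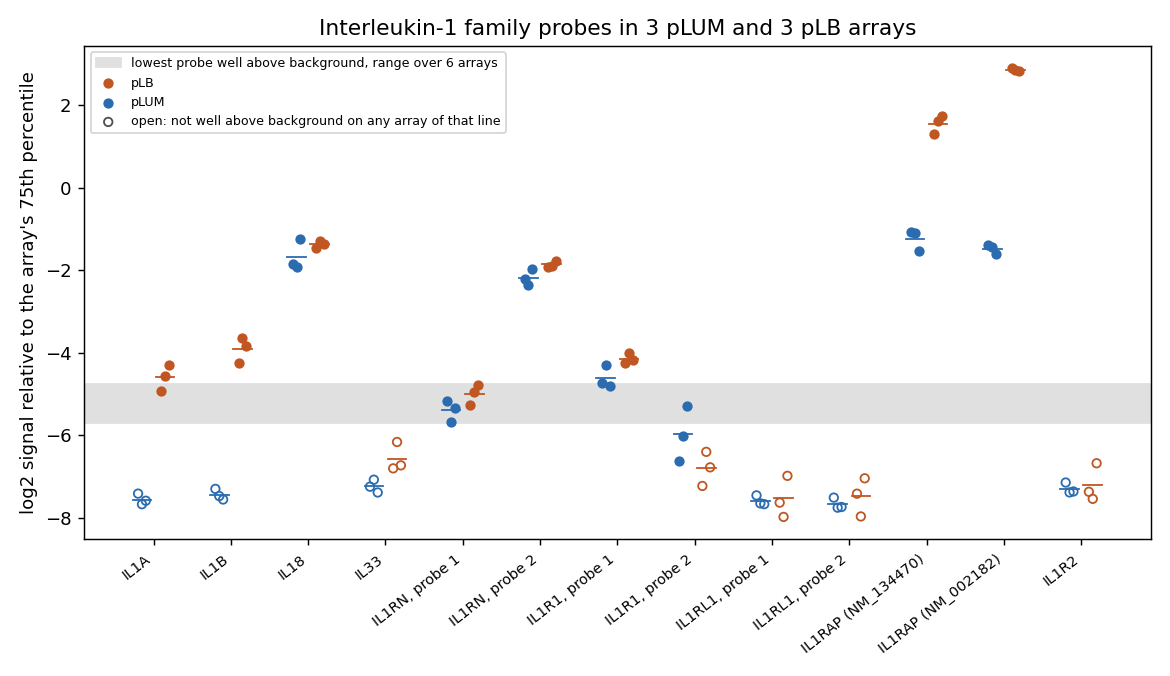
Signal of each of the 13 probes (x axis) on the 3 pLUM and 3 pLB arrays, as log2 relative to the 75th percentile of the array (y axis), with lines at the means. Open circles mark a line in which the probe was not well above background on any array, and the grey band is the range over arrays of the lowest signal that was. Both IL1RAP probes separate the lines among clearly detected signals, whereas IL1A and IL1B lie below the band in pLUM and in or above it in pLB.

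IL1B encodes the secreted ligand that caspase-1 releases from its precursor. Its log2 signal was -7.30, -7.47 and -7.55 in the pLUM sorts, in order of replicate, compared with -4.24, -3.65 and -3.83 in the pLB sorts. The lines did not overlap, as was so for 69.1% of tested genes. The probe was well above background on all 3 pLB arrays but on none of pLUM, and IL1B was therefore at least 2.77-fold higher in pLB (fitted log2 change 3.53, SE 0.20, limma adjusted p = 8.7e-06). This bound sets the mean of pLB against the lowest signal on each pLUM array that still counts as well above background. It holds only for the background subtraction of the report's fit.

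IL1A, which encodes IL-1 alpha, behaved likewise but was dimmer. Its log2 signal was -7.41, -7.67 and -7.58 on the pLUM arrays and -4.93, -4.56 and -4.30 on the pLB arrays, again without overlap and with detection in pLB alone. IL1A was at least 1.72-fold higher in pLB (fitted log2 change 2.96, SE 0.21, limma adjusted p = 2.1e-05). A bound under 2-fold means that the 2-fold threshold was passed only by counting the unmeasured pLUM signal at its fitted value.

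Both ligands were near the detection limit even in pLB. IL1A had an intensity of 28.6, 29.5 and 22.8 units on pLB replicates 1, 2 and 3, where the lowest signals well above background were 20.3, 13.3 and 16.7 units. IL1B reached 45.9, 55.5 and 31.6 units on these arrays. Each of these genes is printed 10 times on the array, which allows its spots to be set against the negative control spots. In pLB, each usable IL1A spot (9, 7 and 8 on replicates 1, 2 and 3) and each of 10 IL1B spots was brighter than the brightest of the 144 to 147 control spots of the same array. In pLUM, 0 or 1 spots of either gene exceeded the brightest control spot on an array.

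**Figure D2:**
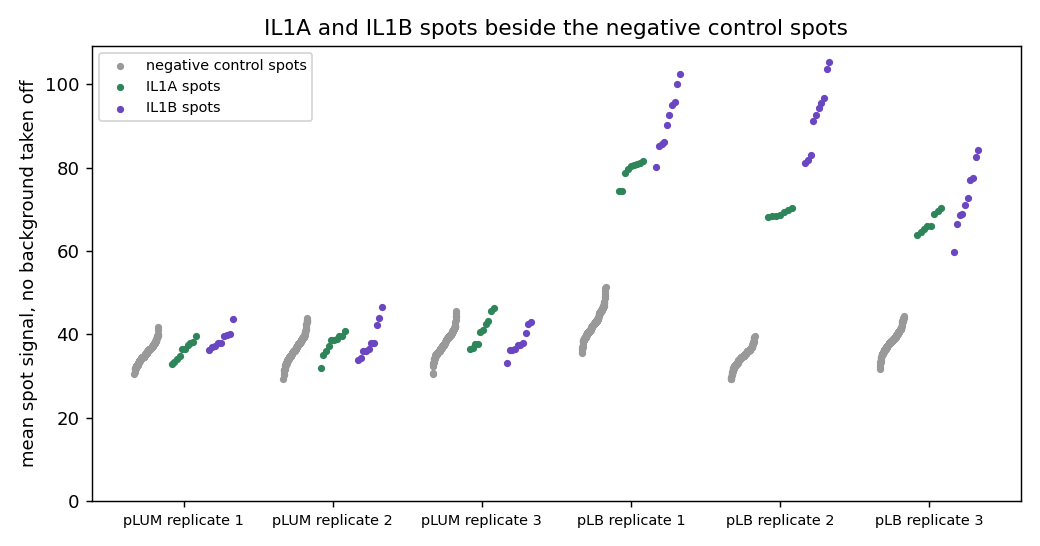
Mean brightness of each IL1A, IL1B and negative control spot, in intensity units with no background taken off (y axis), on each array (x axis). On pLB arrays the median IL1A spot was at 65.9 to 80.4 units and the median IL1B spot at 71.8 to 93.5, all above the control spots, whereas in pLUM the spots of both genes lie among the controls.

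The low signal made both ligand calls depend on the background correction and on the offset added with it. With normexp on the mean and local background signals and an offset of 50, the log2 change was -0.07 (limma adjusted p = 0.90) for IL1A and 0.12 (adjusted p = 0.82) for IL1B. That correction assigned pLUM replicate 1 a mean background of -107 units, compared with -0.397 to 5.22 on the other arrays. Of 44495 spots on that array, 3 had a local background over 100 units above their signal, and without these 3 the mean became 1.07. After their removal, chosen after the data were seen, the change was 0.35 for IL1A (adjusted p = 0.16) and 0.53 for IL1B (adjusted p = 0.041) at offset 50. At offset 1 it was 1.69 for IL1A (adjusted p = 0.00017) and 1.90 for IL1B (adjusted p = 0.00011), both of which were called. An offset of 50 units exceeds the intensity of IL1A in pLB, 22.8 to 29.5 units, and is near that of IL1B, 31.6 to 55.5 units. It therefore shrinks any change in these genes, and the calls lost at this offset cannot show that the lines were alike. When signals were raised to the lowest level well above background on their array, IL1B was still called at 1.47 and IL1A, at 0.78, was not.

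IL18 was detected in both lines at a similar level. Its log2 signal was -1.85, -1.92 and -1.25 in pLUM and -1.45, -1.29 and -1.37 in pLB. The lines overlapped, since pLUM replicate 3 was the brightest of the 6 arrays, and the log2 difference of 0.30 did not pass the test (SE 0.22, limma adjusted p = 0.26). IL33, an alarmin ligand of IL1RL1, was not well above background on any array, with log2 signals of -7.38 to -7.07 in pLUM and -6.80 to -6.16 in pLB.

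The antagonist gene IL1RN was detected in both lines. Its brighter probe (chr2:113891531-113891590) read -2.20, -2.35 and -1.97 in pLUM and -1.91, -1.89 and -1.77 in pLB on the log2 scale. pLB arrays were all slightly above pLUM arrays, as for 35.7% of tested genes, but the difference of 0.32 did not pass the test (SE 0.17, limma adjusted p = 0.14). The dimmer probe (chr2:113890639-113890698) differed by 0.39 with overlapping lines (adjusted p = 0.14). Whether agonist and antagonist changed by unequal amounts was asked by taking their difference within each array. IL1B minus IL1RN was -5.27 ± 0.27 in pLUM and -2.05 ± 0.29 in pLB (log2, SD, n = 3 per line), a shift of 3.22 with an exact two-sided permutation p of 0.1, the smallest possible. IL1A minus IL1RN moved by 2.64 from -5.38 ± 0.21 to -2.74 ± 0.25 (SD, n = 3, exact permutation p = 0.1). Adjusted over 3 differences, these and that of the IL1RAP probes given below, p stayed at 0.1. In pLUM neither ligand was detected, and both passed the filter through pLB alone. The pLUM means and SDs of these ligand differences thus rest on unmeasured signals, and the separation of the lines was partly set by the filter. The permutation p therefore cannot decide whether agonist and antagonist changed unequally. With signals floored the shifts were 1.15 for IL1B and 0.47 for IL1A, smaller than those above.

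IL1R1, the signalling receptor, was dim in both lines. Its brighter probe (chr2:102792046-102792105) read -4.74, -4.30 and -4.79 in pLUM and -4.24, -4.00 and -4.16 in pLB, and was well above background on all 6 arrays. The log2 difference of 0.47 did not pass the test (SE 0.19, limma adjusted p = 0.066), although pLB arrays were all above pLUM arrays, as for 35.7% of tested genes. A second IL1R1 probe (chr2:102795394-102795453) was above background on 1 pLUM array only and was not tested. Its mean lay in the other direction, at -5.98 in pLUM and -6.80 in pLB, with overlapping lines and mostly unmeasured signals. The decoy IL1R2, read by a 60-base probe that spans chr2:102632505-102636150 and thus an exon junction, was at -7.38 to -7.14 in pLUM and -7.54 to -6.68 in pLB and not above background on any array. The balance of IL1R1 against IL1R2 therefore has no value. IL1RL1, the IL-33 receptor, was likewise at background with both of its probes, whose log2 signals were between -7.98 and -6.98 on the 6 arrays.

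IL1RAP was the called member that was detected on every array, so that its change is measured on both sides. The probe of the membrane form read -1.39, -1.44 and -1.61 in pLUM and 2.90, 2.85 and 2.82 in pLB. It rose from below an upper-quartile spot to well above it, by 20.2-fold (log2 change 4.34, SE 0.15, limma adjusted p = 1.1e-06). The probe of the soluble form read -1.07, -1.10 and -1.53 in pLUM and 1.31, 1.61 and 1.75 in pLB. It rose by 6.91-fold (log2 change 2.79, SE 0.21, adjusted p = 2.8e-05). Neither probe overlapped between lines.

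The IL1RAP probes rose by unequal amounts. Their difference within an array, membrane minus soluble, was -0.32, -0.34 and -0.08 in pLUM and 1.59, 1.23 and 1.07 in pLB. These values did not overlap and moved by 1.55 on the log2 scale, or 2.92-fold (exact two-sided permutation p = 0.1, the smallest possible). This contrast was chosen after the values had been seen. It shows that the ratio of probe signals changed and not which form was more abundant, because brightness depends on the probe. Both probes were called in each alternative in which they were tested, with a log2 change of 3.56 to 4.59 for the gene by its membrane-form probe or the mean of its probes, and of 2.43 to 3.04 for the soluble form.

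**Figure D3:**
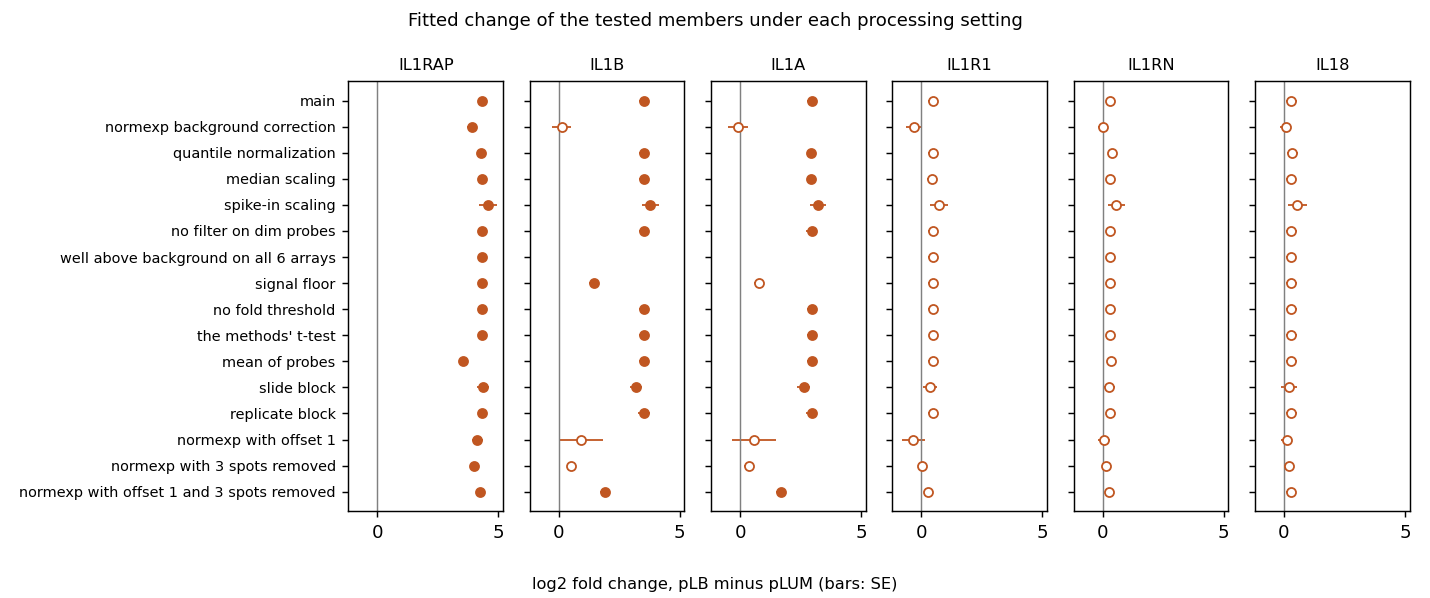
Log2 change from pLUM to pLB (x axis, bars are the SE) of the 6 tested members under each processing setting (rows), where filled points were called and open points were not. IL1RAP was called in each row, between 3.56 and 4.59, whereas IL1B and IL1A move toward 0 under normexp and have no point where all 6 arrays had to be above background.

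Because pLB replicates 2 and 3 lay on another slide, the lines were also compared with slide as a block, in which case the estimate comes from slide 1 alone, with 1 pLB array (replicate 1) and 3 of pLUM. The log2 change was then 2.63 for IL1A, 3.20 for IL1B and 4.38 for the membrane-form probe of IL1RAP, and limma called all 3. The spread in this fit comes from the other arrays, and the single pLB array is assumed to vary as they do. Leaving out any 1 array kept the change at 2.81 to 3.13 for IL1A, 3.40 to 3.70 for IL1B and 4.27 to 4.38 for IL1RAP.

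For each called member the 3 genes of most similar profile were sought among 14334 genes, by the root mean square (RMS) difference of centred log2 signals over the 6 arrays. IL1RAP was closest to PPP1R1C, HSPB3 and KCNH5, with an RMS of 0.03, 0.08 and 0.10. IL1B was closest to TLR6, a toll-like receptor, TGFBR3, a TGF-beta coreceptor, and CT45A5, at 0.07, 0.08 and 0.15. IL1A was closest to USP31, SLC1A3 and CSMD2, at 0.09, 0.10 and 0.10. With 6 arrays in 2 lines, this measure mostly finds genes with a line difference of equal size. For IL1A and IL1B it uses pLUM signals that were not above background, so that their ranks rest in part on unmeasured values. For the uncalled members the nearest genes were RGP1, MECR and TMC6 for IL18, ZNF346, PPP2R5B and PIK3R1 for IL1RN and UBE2T, NDFIP2 and MAT2B for IL1R1.

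IL1A, IL1B and IL1RN lie in 1 stretch of chromosome 2, together with the IL-36 genes. Between the probes of IL1A and IL1RN (chr2:113532362-113891590), the array has 10 genes, of which 5 were tested and IL1A and IL1B alone were called. IL36G, an epithelial IL-36 ligand, missed the filter, being above background on 2 pLB arrays and no pLUM array, with log2 signals of -7.44 to -7.18 in pLUM and -4.91 to -4.46 in pLB. The receptor genes form another stretch (chr2:102632505-103068944) with 8 genes, of which 5 were tested, and IL18R1 and IL1RL2 were called. Over all tested genes, 45.7% were called. IL1A, IL1B and IL18R1 entered the test only through pLB, and these counts are not read as a trait of either stretch.

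In the wider family of 13 ligands, receptors and inhibitors, 2 of 7 tested genes rose and 1 fell in pLB, beside 22.7% and 23.0% over all tested genes. IL18R1, the ligand-binding chain of the IL-18 receptor, read -7.57, -7.74 and -7.75 in pLUM and -3.09, -2.81 and -2.41 in pLB, and was at least 6.09-fold higher in pLB (limma adjusted p = 2.4e-06). Another tested probe gave at least 2.55-fold, and under normexp the call was lost (log2 change 0.87, adjusted p = 0.13), whereas after removal of the 3 spots of very high local background on pLUM replicate 1 it was made (1.29). Its partner IL18RAP, named after its value was seen, differed by -0.07 with overlapping lines (adjusted p = 0.86). SIGIRR, an inhibitory member of the receptor family, fell by 1.87 on the log2 scale from a mean of 2.91 to 1.04 (SE 0.19, adjusted p = 0.00013). IL1RL2, the IL-36 receptor, was called at 1.38 (SE 0.42, adjusted p = 0.022), but its pLB arrays spread from -3.72 to -1.96. The IL1RL2 call was lost with slide as a block (0.47, adjusted p = 0.30), with the methods' t-test, with each normexp setting and without any 1 of pLUM replicates 2 and 3 or pLB replicates 2 and 3.

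Genes of cytokine maturation, which form or regulate the inflammasome and cleave the precursors, were called higher for 7 of 13 tested and lower for none. Over all tested genes, 22.7% were called higher and 23.0% lower. At an unadjusted p under 0.05, 8 were higher and 1 lower, beside 6064 and 5802 of all 17670 tested genes. By the methods' t-test 0 were lower. Of the 7, CASP1, CARD16 and CARD17 entered the test only through pLB, and of the 10 genes above background in both lines 4 were higher, compared with 20.4% of all such genes. CASP1, the IL-1 beta-converting enzyme, read -6.34, -6.94 and -6.09 in pLUM and 1.42, 1.19 and 0.83 in pLB. It was not above background in pLUM and was at least 92.1-fold higher in pLB (limma adjusted p = 1.2e-06). CARD16, which encodes a caspase-1 inhibitor, was at least 17.3-fold higher. With normexp the log2 change was 3.76 for CASP1 and 1.73 for CARD16, both still called but below these bounds. Both were the lowest values of any setting, from the fit that gave pLUM replicate 1 a mean background of -107 units. CASP4 and CASP5, the caspases of the noncanonical inflammasome, rose by 4.10 and 3.75 on the log2 scale. These genes lie side by side on chromosome 11 (chr11:104815492-105009673), where 5 of 6 listed genes were higher and CARD18, at -0.84, was not called. CASP1, CARD16 and CARD17 are closely similar in sequence, and cross-hybridization was not tested. Among the listed sensors, NLRP1 was above background on every array and called higher in pLB by both of its probes. Its log2 change was 1.92 (limma adjusted p = 0.00018) and 1.08 (adjusted p = 0.016). MEFV, at 0.63, was not called, and NLRP3, NLRC4 and AIM2 were not above background on any array. The sensors were named after their values were seen.

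Of 17 genes of receptor signalling, all of which were above background in both lines, 7 rose and 4 fell, compared with 20.4% and 21.0% of all genes above background in both lines. Those with the largest increases were PELI2, an E3 ligase that binds IRAK proteins, at 3.40, IRAK3, an inhibitory IRAK, at 2.79, the adaptor ECSIT at 1.80 and TOLLIP, which restrains IRAK1, at 1.54 on the log2 scale. The genes that fell were UBE2N by 1.59, IRAK4, the first kinase of the cascade, by 1.53, TAB3 by 1.40 and MAP3K3, whose mean went from 1.61 to 0.50. Under normexp the calls of IRAK3 (0.80, adjusted p = 0.11), UBE2N (-0.90) and MAP3K3 (-0.96) were lost, as were those of IRAK4 (-0.96) and UBE2N (-0.67) under normexp after removal of 3 spots and that of MAP3K3 with spike-in scaling (-0.85, adjusted p = 0.058). MYD88, the adaptor on which the pathway depends, differed by -0.67, below the 2-fold threshold (adjusted p = 0.027).

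Of 24 genes known to be induced by IL-1, 17 were tested, of which 11 were called higher and 0 lower in pLB. Over all tested genes, 22.7% were called higher and 23.0% lower. At an unadjusted p under 0.05, 13 were higher and 2 lower, beside 6064 and 5802 of all 17670 tested genes. By the methods' t-test 0 were lower. Of the 11, 5 entered the test only through pLB. Of the 12 tested genes that were above background in both lines, 6 were higher, compared with 20.4% of all such genes. CXCL1, a neutrophil chemokine, read -6.07, -5.83 and -5.78 in pLUM and 4.54, 4.49 and 4.41 in pLB, and was at least 929-fold higher in pLB. CXCL2, above background on 1 pLUM array, rose by a fitted 6.78 on the log2 scale (6.56 with a signal floor and 3.86 with normexp). PTGS2, the inducible cyclooxygenase, was at least 20.8-fold higher and MMP1, a collagenase, at least 34.5-fold higher. With normexp the log2 change was 7.07 for CXCL1, 2.01 for PTGS2 and 2.48 for MMP1, all still called but below these bounds. For these genes and CXCL2 that was the lowest value of any setting. It comes from the fit that gave pLUM replicate 1 a mean background of -107 units. The CXCL1, CXCL2 and CXCL3 transcripts are closely similar, and cross-hybridization was not tested. The remaining genes called higher were IL8, CXCL3, ICAM1, TNFAIP3, SOD2, LCN2 and LIF, with a log2 change of 4.06 for ICAM1 and 2.00 for TNFAIP3. NFKBIA and NFKBIZ, which respond early to NF-kappaB, differed by 0.13 and -0.20 and were not called. CCL2, BIRC3, ZC3H12A and BCL2A1 were not called either. IL6, a classical IL-1 target, was not above background with either of its probes. Apart from CXCL1, CXCL2, PTGS2 and MMP1, the genes of this list were named after their values were seen. The listed genes answer to many stimuli, and whether IL-1 acts on them in pLB was not tested.

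**Figure D4:**
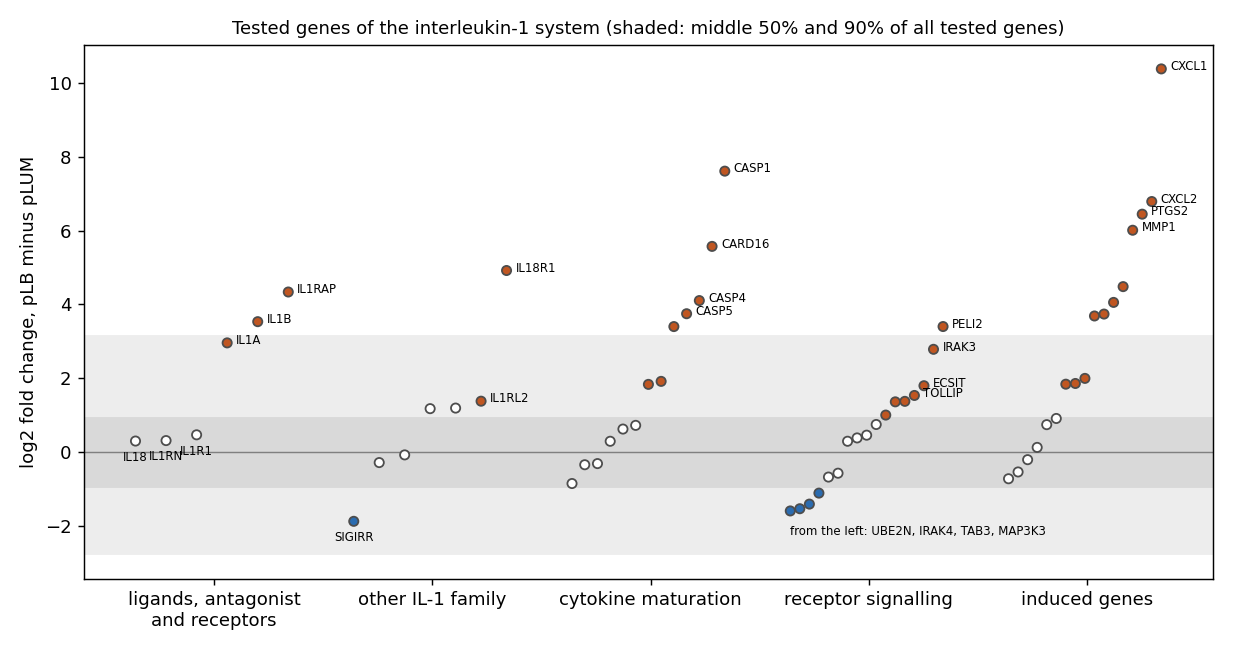
Log2 change from pLUM to pLB (y axis) of each tested gene of the 9-gene set and the 4 pathway lists (x axis), where orange points were called higher, blue points lower and white points neither. Grey bands hold the middle 50% and 90% of all 17670 tested genes. For genes not above background in pLUM the fitted value depends on unmeasured signals, among them IL1A, IL1B, IL18R1, CASP1 and CXCL1.

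The median log2 change was 1.18 in the wider family, 1.84 in cytokine maturation, 0.46 in receptor signalling and 2.00 among induced genes, compared with 0.04 over all tested genes. With genes that were above background in only 1 line set at their bound, the medians were 1.18, 1.84, 0.46 and 1.86. The lists were chosen with results of these data known, and the numbers describe them and are not a test of the pathway.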

How the data were processed

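RNA of sorted pLUM and pLB cells, in triplicate, was measured on 1-colour (Cy3) Agilent arrays. The authors deposited scanner files written by Feature Extraction 10.10.1.1 (Agilent), which give 1 intensity per spot. Background had been subtracted and spatial trends removed on each array, with no scaling between arrays. Signals near background, such as those of IL1A, depend on that subtraction. The software's own flags mark outliers and signals well above background.

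From these, log2 intensity minus the array's 75th percentile was computed. Control and outlier spots (296 to 387 per array) were omitted, and spots of a probe averaged. Probes had to be well above background on 3 or more of 6 arrays, which 23105 were, and lines were compared by limma (3.58.1, R 4.3.3) with Benjamini-Hochberg adjustment. A call required 2-fold and adjusted p under 0.05. Each gene was represented by its brightest tested probe. Within-array differences were tested by exact permutation (scipy). On simulated data with 200 of 23105 probes changed, 39 of 50 6-fold changes and 28 of 50 3-fold changes were called, with 3 false calls. In the real comparison 45.6% of probes were called, so that these rates do not carry over to it.

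Named genes are the 9 members, their nearest profiles and, per pathway list, up to 4 called genes with the largest change each way. Other genes, such as MYD88, CARD18, IL36G and CXCL3, were named after their values were seen, or are markers. Members and lists were chosen with earlier results of these data known. Replicate numbers did not pair the samples. Positions from the array files are hg19, and promoters are from RefSeq for GRCh38.p14. E plus progesterone-treated cells were not analysed here.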

Additional observations from a re-analysis of the deposited data

How the results depend on the processing

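IL1RAP was called under each alternative, whereas the calls of IL1A and IL1B depended on how dim signals were treated. Of the 3 members called higher in pLB, 1 was left with normexp, with normexp at offset 1, with normexp after 3 spots were removed, and when all 6 arrays had to be above background, which leaves IL1A and IL1B untested, and 2 were left with a signal floor. The offset of 1 and the removal of spots were chosen after seeing the data.

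With normexp, IL1A (A_23_P72096) reversed to -0.071 and IL1A minus IL1RN to -0.088, and IL1B minus IL1RN was 0.10. The 2 shifts against IL1RN were 0.47 and 1.15 with a signal floor, 0.53 and 0.88 with normexp at offset 1, 0.20 and 0.37 after removal of 3 spots, and 1.44 and 1.66 with both. The shift between the IL1RAP probes was 1.48 to 1.56 under these settings. Probes called higher in pLB, 5054 in the report's fit, numbered 3004 with normexp, 3195 at offset 1 and 3343 after removal of 3 spots, where 3582 instead of 5476 were lower.

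In the wider family, the count higher was 0 with normexp and at offset 1, and 1 after removal of 3 spots with either offset, with all 6 arrays above background, with the methods' t-test and with slide as a block, and without a filter 2 were lower. In cytokine maturation 4 were higher with normexp or all 6 arrays above background. In receptor signalling, normexp gave 4 higher and 2 lower, and removal of 3 spots 2 lower. Among induced genes 5 were higher with all 6 arrays above background, and 1 was lower without a filter, without the fold threshold and with slide as a block.

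Leaving out each array in turn gave 3 members higher and 0 lower each time, 1 to 3 higher in the wider family, where 1 was left without pLUM replicates 2 or 3 or pLB replicates 2 or 3 and 3 without pLUM replicate 1, and 0 to 1 lower in cytokine maturation, 1 without pLB replicate 3. With the replicate number as a block, 3 members were higher and 0 lower, and 4986 probes higher and 5383 lower. Deviations of samples with the same number correlated at -0.27, -0.09 and -0.22, so that the numbers do not pair the samples, and the block changed none of the member or list counts. Scaling to spike-in controls shifted the median gene by 0.25 and kept the 3 member calls, while probes called went to 6131 higher and 4363 lower. IL1R1 minus IL1R2 could not be given under any setting, since IL1R2 was at background. Signal over background, not the number of genes tested, limits what can be said of IL1A, IL1B, IL33, IL1R2 and IL1RL1.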
